A study of Mus musculus with 9 samples.

Results

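The 43 genes described here encode the machinery that copies nuclear DNA, together with E2f1, a transcription factor of the genes that carry it out. They were matched by symbol to a list of replication genes, as 43 of the 21553 genes with read counts; all 43 were present in both expression tables and all 43 passed the filter on low counts. The libraries came from N2A cells, a mouse neuroblastoma line that divides in culture, 48 hours after transfection of pooled small interfering RNAs, and polyadenylated RNA was sequenced. In the second experiment the pools targeted Zfp871, a zinc finger gene (siZfp871), or Srrm4, an activator of neuronal microexons (siSrrm4), beside a non-targeting pool (siNT), with 2 libraries each. In the first experiment the pools targeted Mbnl1 and Mbnl2 together (siMbnl), which encode muscleblind splicing regulators, or Nacc1 (siNacc1), which encodes a BTB domain nuclear protein, beside a non-targeting pool of that experiment, with 1 library each. All groups shared the cell line and the transfection, and the knockdowns were transient reductions of RNA in a pool of cells, not deletions. Each knockdown is compared with the siNT of its own experiment, and the knockdowns of the second experiment are also compared with each other.

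Replication starts at origins, which the origin recognition complex binds and Cdc6 and Cdt1 license by loading the Mcm2 to Mcm7 helicase. In S phase the helicase is activated with Cdc45 and the GINS complex, primase and the polymerases copy the strands, the PCNA clamp and its RFC loader hold the polymerases on DNA, RPA covers the unwound strand, and Fen1 and Lig1 join the lagging-strand fragments. Ribonucleotide reductase and thymidylate synthase supply the deoxynucleotides, and in dividing mammalian cells many of these genes are transcribed before and during S phase under E2F and RB control. In bulk libraries a smaller share of cells in S phase and less RNA per cell cannot be told apart.

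Promoter windows, 250 bases before to 50 bases after the start site of a gene, were matched for 35 of the 43 genes (RefSeq, GRCm38.p6). They were searched on both strands for the E2F-type motifs TTTCCCGC, TTTGGCGC, TTTCGCGC and TTTGCCGC and for CCAAT, the core letters bound by NF-Y. At least 1 of the E2F-type motifs lay in a window of 14 of the 35 replication genes, 40.0%, against 2.6% of the 27025 genes in the table. CCAAT lay in windows of 62.9% of the replication genes, against 41.1% of all genes, and the median GC content of the windows was 60.7% against 52.7%. The windows of Orc1 (chr4:108579204-108579503, plus strand), Cdc6 (chr11:98907901-98908200, plus strand), Gins3 (chr8:95633309-95633608, plus strand) and Rrm2 (chr12:24708004-24708303, plus strand) are printed because these genes differed between the Zfp871 and Srrm4 knockdowns and show both kinds of window. Capitals mark an E2F-type motif or CCAAT, read on either strand.
Orc1: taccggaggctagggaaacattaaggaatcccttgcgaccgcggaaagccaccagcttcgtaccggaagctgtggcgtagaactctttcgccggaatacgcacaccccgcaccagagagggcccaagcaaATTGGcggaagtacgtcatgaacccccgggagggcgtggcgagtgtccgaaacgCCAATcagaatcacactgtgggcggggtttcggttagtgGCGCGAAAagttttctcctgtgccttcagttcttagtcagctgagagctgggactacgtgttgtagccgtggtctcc
Cdc6: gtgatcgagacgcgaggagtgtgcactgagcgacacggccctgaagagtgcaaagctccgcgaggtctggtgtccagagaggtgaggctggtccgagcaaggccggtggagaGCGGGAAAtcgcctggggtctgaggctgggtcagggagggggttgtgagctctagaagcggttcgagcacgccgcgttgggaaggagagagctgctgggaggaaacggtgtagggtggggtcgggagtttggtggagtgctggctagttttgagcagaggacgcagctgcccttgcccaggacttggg
Gins3: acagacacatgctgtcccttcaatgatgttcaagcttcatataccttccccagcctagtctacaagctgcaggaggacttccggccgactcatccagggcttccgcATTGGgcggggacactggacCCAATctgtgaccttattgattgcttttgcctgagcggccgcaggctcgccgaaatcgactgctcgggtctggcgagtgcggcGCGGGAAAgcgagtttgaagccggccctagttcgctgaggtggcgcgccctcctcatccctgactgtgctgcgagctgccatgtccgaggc
Rrm2: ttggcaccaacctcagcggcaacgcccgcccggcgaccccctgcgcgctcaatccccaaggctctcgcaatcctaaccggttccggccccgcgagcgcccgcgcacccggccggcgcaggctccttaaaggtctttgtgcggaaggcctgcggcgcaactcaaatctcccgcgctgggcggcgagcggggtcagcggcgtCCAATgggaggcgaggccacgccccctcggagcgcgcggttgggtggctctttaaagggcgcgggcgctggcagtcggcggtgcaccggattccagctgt
The E2F-type motif of Orc1 began at position -27 from the start site, that of Gins3 at position -41 and that of Cdc6 at position -138. The Rrm2 window held CCAAT and none of the E2F-type motifs in these letters. Of the members with a matched window that were called higher in the Zfp871 than in the Srrm4 knockdown, 3 were among the 14 with such a motif. Another 7 were among the 21 without. Gins2 was called too but had no matched window.

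Read totals were 44186088 to 61159670 counts per library in the second experiment and 50086176 to 63715449 in the first, and the replication genes took 0.486% to 0.623% of them. Single members had 472 to 27934 reads in a library. The targeted genes agreed in direction with their labels: Zfp871 had 7.17 and 5.08 CPM (counts scaled to the library total, with TMM factors) in siZfp871 against 17.6 and 26.2 in siNT, Srrm4 had 28.3 and 26.1 in siSrrm4 against 66.8 and 96.7 in siNT, and in the first experiment Mbnl1 had 45.2 against 124, Mbnl2 18.2 against 65.7 and Nacc1 52.0 against 208 CPM. Srrm4 had 44.9 and 53.7 CPM in siZfp871, between the siSrrm4 and siNT libraries (-0.73 against siNT, edgeR adjusted p = 0.0990). Nacc1 was higher in the Zfp871 than in the Srrm4 knockdown (0.51, edgeR adjusted p = 0.0322). In the first experiment Mbnl1 had 82.7 CPM in siNacc1 against 124 in siNT (-0.59), while Mbnl2 had 65.6 against 65.7. By RefSeq annotation, 19 of the 43 replication genes overlap another gene, and Pcna and Tyms have pseudogene copies, so reads of these could be shared. Of the 10 noradrenergic neuroblast markers none was at 0 in a group, and they summed to 1040 to 1600 CPM, while the 4 immune markers summed to at most 1.53 CPM and the 5 mesenchymal markers to at most 4.71 CPM in any library, with Col3a1 at 0 throughout and Ptprc at 0 in 5 of 6 groups. The 5 neuronal markers summed to 1980 to 2720 CPM and the 5 glial markers to 4.23 to 7.72. The 4 epithelial markers summed to 24.7 to 38.4 CPM, in the first experiment mostly from Grhl2. The noradrenergic sum was 1220 to 1240 CPM in siZfp871, 1110 to 1240 in siSrrm4 and 1390 to 1600 in siNT. Single markers went both ways. By edgeR, Dbh (log2 fold change -2.24) and Phox2a (-1.41) were called lower and Insm1 (0.84) higher after Zfp871 knockdown. Hand2 (-0.54) was called lower after Srrm4 knockdown. Between the knockdowns Insm1 (1.34) was called higher, and Dbh (-1.83) and Gata3 (-0.46) lower. Of the neuronal markers, Elavl3 (-0.49) and Elavl4 (-0.89) were called lower after Srrm4 knockdown and Stmn2 (-0.53) lower after Zfp871 knockdown. Elavl4 (0.50) was called higher between the knockdowns. The part of these markers in the replication results was not tested. In every group of the second experiment the replication genes were higher in library b than in library a, by a median of 0.10 on the log2 scale in siZfp871 (34 of 43 genes higher), 0.15 in siSrrm4 (38) and 0.13 in siNT (35). Over all tested genes the medians lay between -0.000876 and 0.0089. Whether both libraries of a group stem from independent cultures is not stated in the labels, so p-values measure the spread between these libraries, which may be technical. The main fit has no term for the letter, so an offset between a and b that the groups share counts as spread in these p-values. Counts with the letter as a replicate block are given in the closing part.

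Levels between genes are compared per length, on the authors' cRPKM scale, in the libraries of the first experiment. Pcna, the sliding clamp, was the highest of the 43 genes, at 176 cRPKM in siMbnl, 227 in siNacc1 and 196 in siNT. The lowest was Orc1, the largest subunit of the origin recognition complex, at 5.91, 6.78 and 5.87 cRPKM in the same order of libraries, and Gins3, a GINS subunit, was next at 6.57, 9.18 and 7.51. The median over the 43 genes was 39.7 cRPKM in siMbnl, 51.9 in siNacc1 and 42.3 in siNT. With 1 library a group the order of neighbouring genes carries no measure of spread.

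**Figure D1:**
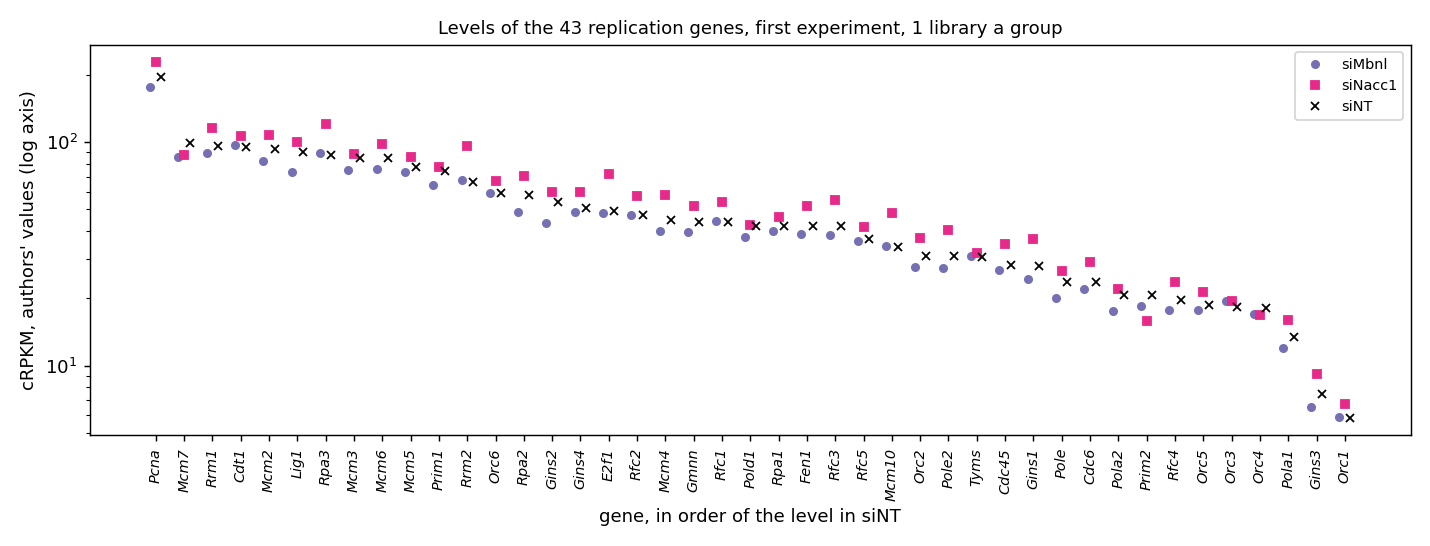
Authors' cRPKM (log axis) of each of the 43 replication genes in the 3 libraries of the first experiment, ordered by the level in siNT; circles are siMbnl, squares siNacc1 and crosses siNT. Pcna leads in every library, at 176 to 227 cRPKM, and Gins3 and Orc1 stand lowest.

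After Srrm4 knockdown most replication genes lay below siNT by small amounts. Rrm2, the regulated subunit of ribonucleotide reductase, and Gins2, a subunit of the helicase complex, fell, and Rpa3, the smallest RPA subunit, rose. With edgeR's quasi-likelihood test adjusted over all 12378 tested genes, 2 of 43 were called lower, where 3.29% of all genes were, and 1 of 43 higher, where 1.41% were. The median log2 fold change was -0.13, against -4.65e-05 over all tested genes, and 32 of 43 genes were below 0. Both siSrrm4 libraries lay below both siNT libraries for 21 of 43 genes (48.8%), where 26.5% of all genes did so, and above both for 3, where 27.3% did. All 12 helicase genes and all 7 polymerase and primase genes had a fold change below 0, while all 3 RPA genes were above 0. At an unadjusted p under 0.05 there were 12 lower (of all tested genes 13.5%) and 1 higher (of all 11.3%). The calls ended when any 1 of the 4 libraries was left out or when siZfp871 was left out of the fit (0 called each time), and the median then ran from -0.185 without siSrrm4 library b to -0.062 without siSrrm4 library a; over all genes the same steps gave 0 to 144 lower calls. Set within letters, the median was -0.14 for the a libraries and -0.12 for the b libraries.

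In the authors' deposited table, at a false discovery rate (FDR) under 0.05, 4 replication genes were lower after Srrm4 knockdown and 1 was higher, where 4.54% and 2.36% of the listed genes were. Beside Gins2, Rrm2 and Rpa3, that table called Tyms (log2 fold change -0.58, FDR 0.0176) and Lig1 (-0.44, FDR 0.0246) lower.

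After Zfp871 knockdown most replication genes lay above siNT, again by small amounts. Orc5, a subunit of the origin recognition complex, was the only member called at the edgeR threshold, with 1 of 43 higher, where 0.751% of all genes were, and 0 of 43 lower, where 2.14% were. The median log2 fold change was 0.12, against -0.0114 over all tested genes, and 34 of 43 genes were above 0. Both siZfp871 libraries lay above both siNT libraries for 22 of 43 genes (51.2%), where 25% of all genes did so, and below both for 3, where 25.5% did. At an unadjusted p under 0.05 there were 6 higher and 1 lower, where 9.47% and 11.6% of all tested genes were. DESeq2 called 4 higher and 1 lower, where 4.59% and 6.75% of all genes were. The polymerase and primase genes were split, with 3 above and 4 below 0, whereas 8 of 9 origin genes were above. The Orc5 call ended when any 1 of the 4 libraries was left out, with an adjusted p of 0.135 to 0.296 in edgeR, and when siSrrm4 was left out of the fit (0.0732). Over all genes the same library steps gave 5 higher and 24 lower calls without siNT library a and 0 calls in each of the other refits, so the loss says nothing about Orc5 in particular. Without siSrrm4 in the fit, 0.32% of all genes were called higher and 1.14% lower. Within letters the median was 0.14 (a) and 0.10 (b). The authors' deposited table also listed Orc5 alone among the members, at an FDR of 0.00268, where 1.81% of listed genes were higher and 3.22% lower.

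The knockdowns share the siNT libraries, so their changes against siNT are not independent. Set directly against each other, with no siNT value in the difference, 11 of 43 replication genes were higher in the Zfp871 than in the Srrm4 knockdown (edgeR adjusted p under 0.05), where 5.53% of all tested genes were, and 0 were lower, where 5.57% were. These were the origin factors Orc1, Orc5 and Cdc6, the helicase genes Mcm2, Gins2 and Gins3, the primase subunit Prim1, the clamp Pcna and its loader subunit Rfc5, and Rrm2 and Tyms for deoxynucleotide supply. The median log2 fold change was 0.22, against -0.0107 over all genes, and 38 of 43 were above 0. Both siZfp871 libraries lay above both siSrrm4 libraries for 29 of 43 genes (67.4%), where 29.1% of all genes did so, and below both for 4, Orc3, Gmnn, Rpa3 and Pold1, where 30.3% did. At an unadjusted p under 0.05, 17 were higher and 0 lower, where 14.7% and 14.6% of all genes were. DESeq2 called 16 higher and 0 lower, where 11.1% and 9.56% of all genes were. Leaving out siZfp871 library a or b or siSrrm4 library b ended all calls, of members and of all genes alike. That loss says nothing about the replication genes in particular. Without siSrrm4 library a only Rrm2 of the members stayed called (log2 fold change 0.84). There the members lost a larger share of their calls than all genes did. So the number of members called between the knockdowns depended on siSrrm4 library a. The median ran from 0.15 without siSrrm4 library a to 0.32 without siSrrm4 library b, and within letters it was 0.27 (a) and 0.23 (b).

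**Figure D2:**
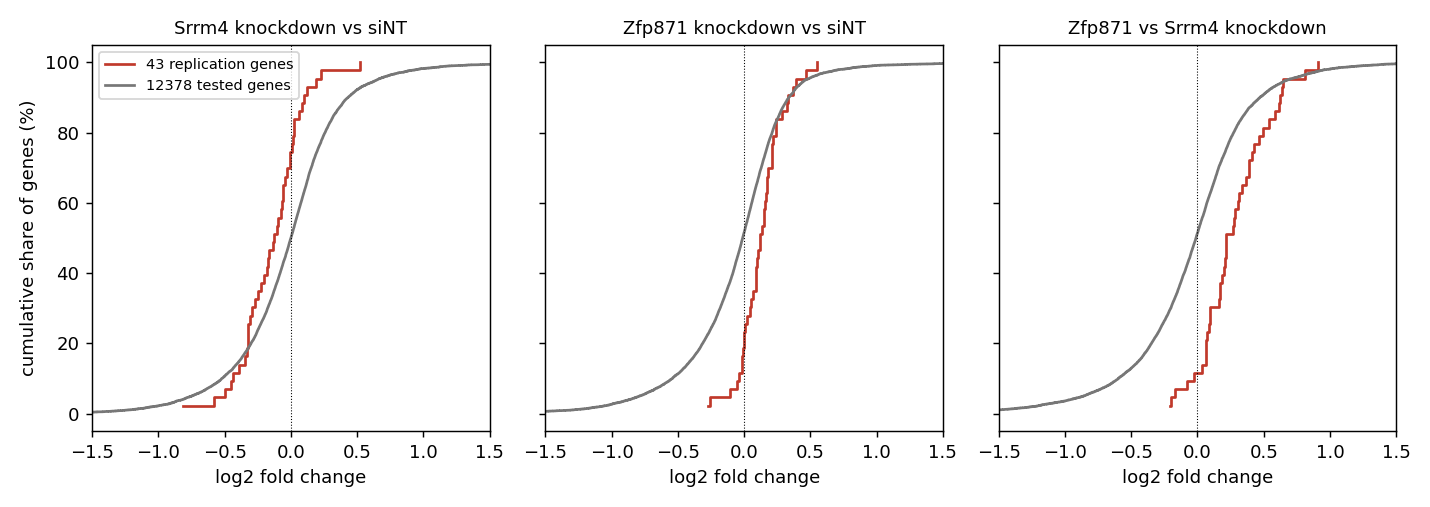
Cumulative share of genes (%) against log2 fold change for the 43 replication genes (red) and all 12378 tested genes (grey) in the 3 comparisons of the second experiment. The red line lies left of the grey one at the middle of its range after Srrm4 knockdown (medians -0.13 and -4.65e-05) and right of it after Zfp871 knockdown (0.12 and -0.0114) and between the knockdowns (0.22 and -0.0107).

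Among the 9 genes of origin recognition and licensing, Orc5 had 64.0 and 68.9 CPM in siZfp871, 41.4 and 43.5 in siSrrm4, and 43.6 and 47.2 in siNT. Both siZfp871 libraries stood above the 4 others. By 0.55 on the log2 scale (SE 0.09), Orc5 rose after Zfp871 knockdown against siNT (edgeR adjusted p = 0.0423), and it was 0.65 higher than in the Srrm4 knockdown (SE 0.09, edgeR adjusted p = 0.0162). Orc1 had 22.9 and 24.6 CPM in siZfp871, 15.8 and 14.7 in siSrrm4, and 15.7 and 18.7 in siNT, so the siSrrm4 libraries overlapped siNT and the siZfp871 libraries lay above both. It was called between the knockdowns (0.64, SE 0.13, edgeR adjusted p = 0.0332) but not for Zfp871 knockdown against siNT (0.47, SE 0.13, edgeR adjusted p = 0.115). Cdc6, the ATPase that loads the helicase, had 77.9 and 87.0 CPM in siZfp871, 52.8 and 60.8 in siSrrm4, and 66.9 and 75.9 in siNT. Its 3 groups did not overlap, with siNT in the middle, and the knockdowns differed by 0.54 (SE 0.12, edgeR adjusted p = 0.0396). Orc6, the smallest origin recognition subunit, had 115 and 123 CPM in siZfp871, 83.3 and 96.2 in siSrrm4, and 88.1 and 96.6 in siNT. The siZfp871 libraries were again highest, but neither comparison was called (0.37 against siNT, edgeR adjusted p = 0.121, and 0.41 between the knockdowns, 0.0595). Cdt1, which works with Cdc6 in licensing and had the most reads of this group, had 219 and 283 CPM in siZfp871, 236 and 243 in siSrrm4, and 234 and 265 in siNT. All 3 groups of Cdt1 overlapped. Orc3 (log2 fold change -0.08) and Gmnn (-0.21), which encodes the Cdt1 inhibitor geminin, were the origin genes below 0 between the knockdowns.

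Of the 12 helicase genes, all were below 0 after Srrm4 knockdown (-0.49 to -0.01) and all above 0 in the Zfp871 against the Srrm4 knockdown (0.06 to 0.62). Gins2 had 62.8 and 67.2 CPM in siZfp871, 42.2 and 44.5 in siSrrm4, and 60.0 and 62.2 in siNT. The siSrrm4 libraries stood below the 4 others. Gins2 fell by 0.49 after Srrm4 knockdown against siNT (SE 0.09, edgeR adjusted p = 0.0376) and was 0.58 higher in the Zfp871 than in the Srrm4 knockdown (SE 0.09, edgeR adjusted p = 0.0172). Gins3 had 16.5 and 16.3 CPM in siZfp871, 10.4 and 10.9 in siSrrm4, and 13.9 and 15.3 in siNT. The 3 groups of Gins3 did not overlap. It was called between the knockdowns (0.62, SE 0.12, edgeR adjusted p = 0.0306) and not for Srrm4 knockdown against siNT (-0.45, SE 0.12, edgeR adjusted p = 0.0861). Mcm2, a helicase ring subunit and the helicase gene with the most reads, had 402 and 451 CPM in siZfp871, 293 and 312 in siSrrm4, and 369 and 389 in siNT. Its groups did not overlap either, and the knockdowns differed by 0.49 (SE 0.10, edgeR adjusted p = 0.0292). Mcm10, which helps to activate the loaded helicase, had 176 and 200 CPM in siZfp871, 135 and 156 in siSrrm4, and 161 and 185 in siNT. The siSrrm4 libraries were lowest and the others overlapped, and Mcm10 was not called between the knockdowns (0.37, SE 0.12, edgeR adjusted p = 0.109). The other ring subunits had smaller differences between the knockdowns, from 0.07 for Mcm7 to 0.30 for Mcm5, and none was called.

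Prim1, the catalytic subunit of primase, was the 1 member of 7 in its group called between the knockdowns. It had 119 and 111 CPM in siZfp871, 83.6 and 86.8 in siSrrm4, and 104 and 104 in siNT, without overlap between groups. The difference between the knockdowns was 0.43 (SE 0.08, edgeR adjusted p = 0.0288). Pole, the catalytic subunit of the leading-strand polymerase epsilon, had 134 and 161 CPM in siZfp871, 108 and 130 in siSrrm4, and 130 and 167 in siNT. The siZfp871 and siNT libraries of Pole overlapped and the 3 comparisons were not called (0.31 between the knockdowns, edgeR adjusted p = 0.264). Pola1, the catalytic subunit of polymerase alpha, had 85.4 and 88.9 CPM in siZfp871, 58.4 and 74.3 in siSrrm4, and 61.2 and 72.0 in siNT. Its siZfp871 libraries were above the 4 others, and the fold change against siNT was 0.39 (SE 0.14, edgeR adjusted p = 0.193). Pola2, the accessory subunit of the same polymerase, had 54.7 and 58.0 CPM in siZfp871, 49.4 and 50.8 in siSrrm4, and 62.1 and 58.9 in siNT. For Pola2 both knockdowns lay below siNT, by -0.10 for Zfp871 (edgeR adjusted p = 0.549) and -0.27 for Srrm4 (0.121). Pold1, the catalytic subunit of polymerase delta, was the polymerase gene below 0 between the knockdowns (-0.17).

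In the clamp group, Pcna had 303 and 351 CPM in siZfp871, 199 and 228 in siSrrm4, and 261 and 299 in siNT. The groups did not overlap, with siSrrm4 lowest. Pcna was 0.61 higher in the Zfp871 than in the Srrm4 knockdown (SE 0.12, edgeR adjusted p = 0.0320), while the fold change of Srrm4 knockdown against siNT was -0.39 and missed the threshold (SE 0.12, edgeR adjusted p = 0.119). Rfc5, a clamp loader subunit, had 98.6 and 101 CPM in siZfp871, 72.7 and 71.7 in siSrrm4, and 86.4 and 92.3 in siNT. It too had 3 separate groups, and the knockdowns differed by 0.47 (SE 0.08, edgeR adjusted p = 0.0238). The other loader subunits, Rfc1 to Rfc4, lay between -0.02 and 0.10 in that comparison, and none was called.

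All 3 RPA genes were above 0 in both knockdowns against siNT. Rpa3 had 60.6 and 51.3 CPM in siZfp871, 63.0 and 65.5 in siSrrm4, and 45.4 and 43.9 in siNT. Both knockdowns were above siNT in all libraries. Rpa3 rose after Srrm4 knockdown (0.52, SE 0.11, edgeR adjusted p = 0.0490, or 0.0501 with DESeq2 size factors), and the value for Zfp871 knockdown was 0.33 (SE 0.11, edgeR adjusted p = 0.156). Rpa2, the middle subunit, had 107 and 102 CPM in siZfp871, 83.5 and 89.4 in siSrrm4, and 84.0 and 87.4 in siNT. The siZfp871 libraries of Rpa2 stood above the 4 others, by 0.29 against siNT (SE 0.09, edgeR adjusted p = 0.129). Rpa1, the large DNA-binding subunit, had 138 and 141 CPM in siZfp871, 132 and 141 in siSrrm4, and 125 and 133 in siNT, and its differences were at most 0.12.

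For deoxynucleotide supply, Rrm2 had the largest change of the 43 genes in the Srrm4 knockdown. It had 176 and 184 CPM in siZfp871, 90.2 and 101 in siSrrm4, and 160 and 175 in siNT. The siSrrm4 libraries were far below the 4 others. Against siNT, Rrm2 fell by 0.81 after Srrm4 knockdown (edgeR adjusted p = 0.0222, SE 0.10), and the Zfp871 against Srrm4 difference was 0.91 (SE 0.10, edgeR adjusted p = 0.00981). Tyms, thymidylate synthase, had 86.2 and 102 CPM in siZfp871, 49.5 and 57.3 in siSrrm4, and 70.8 and 88.6 in siNT. The siZfp871 and siNT libraries overlapped and the siSrrm4 libraries lay below both. Tyms was called between the knockdowns (0.82, SE 0.15, edgeR adjusted p = 0.0270) and not for Srrm4 knockdown against siNT (-0.58, SE 0.15, edgeR adjusted p = 0.0803). Rrm1, the large reductase subunit, had 426 and 439 CPM in siZfp871, 351 and 395 in siSrrm4, and 385 and 429 in siNT, and was not called in any comparison (0.21 between the knockdowns, edgeR adjusted p = 0.220).

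Of the fragment-joining genes, Lig1, the ligase of the lagging strand, had 248 and 274 CPM in siZfp871, 192 and 206 in siSrrm4, and 256 and 282 in siNT. The siSrrm4 libraries were lowest and the others overlapped. The value for Srrm4 knockdown was -0.43 (SE 0.10, edgeR adjusted p = 0.0631) and that between the knockdowns 0.39 (SE 0.10, edgeR adjusted p = 0.0572), so neither was called. Fen1, the flap nuclease, had values of 0.33, 0.12 and 0.21 for Zfp871 knockdown, Srrm4 knockdown and the direct comparison, none called. E2f1 had 107 and 122 CPM in siZfp871, 105 and 98.4 in siSrrm4, and 124 and 113 in siNT. Its siSrrm4 libraries were below the others, at -0.23 against siNT (SE 0.10, edgeR adjusted p = 0.237), and the knockdowns differed by 0.17 (SE 0.10, edgeR adjusted p = 0.320).

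**Figure D3:**
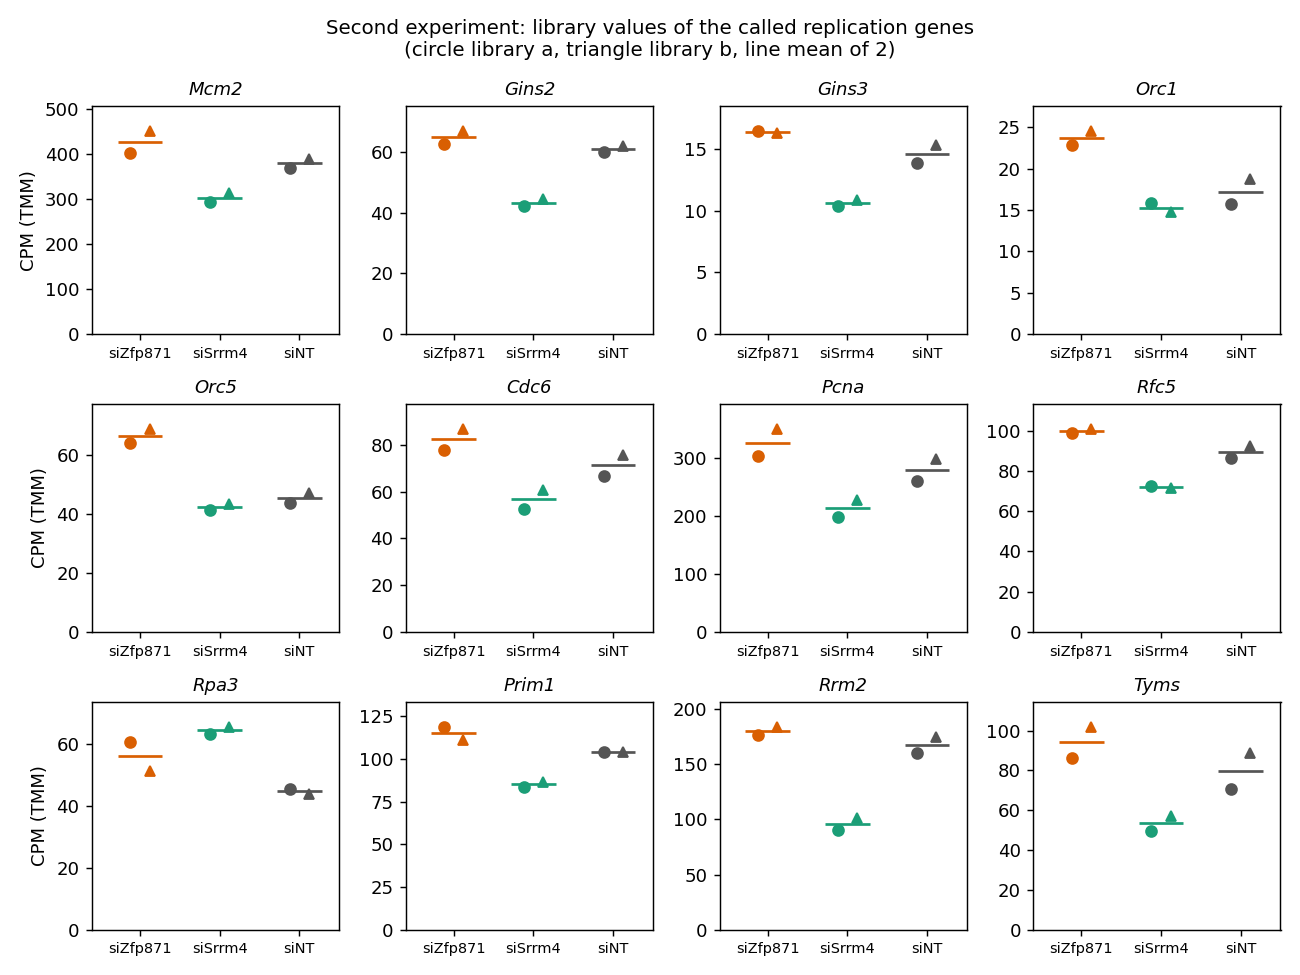
CPM with TMM factors in each of the 6 libraries of the second experiment for the 12 replication genes called in at least 1 comparison; circles are a libraries, triangles b libraries and lines the mean of 2. siZfp871 stands left, then siSrrm4 and siNT, and siSrrm4 has the lowest mean for 11 of them, while Rpa3 is highest in siSrrm4.

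In the first experiment there was 1 library a group, so values carry a 95% counting interval and no p. After Mbnl1 and Mbnl2 knockdown no replication gene was past a 2-fold change, where 0.758% of the 11604 genes with at least 50 counts were higher and 0.259% lower, and none was past 1.5-fold, where 3.06% and 2.20% were. The changes were small and of 1 sign: 42 of 43 genes were below 0, against 6128 of the 11604, and the median log2 fold change was -0.19, against -0.0145. Scaled by total counts alone, without the TMM factor, 33 of 43 were below 0 and the median was -0.13. The interval lay below 0 for 36 of 43 genes, where 34.8% of all genes did so, and above 0 for 0, where 27.9% did. Without the TMM factor, a check chosen after seeing the data, these were 29 below (of all genes 25.2%) and 0 above (of all 39.7%). Gins2 had 48.2 CPM in siMbnl against 62.1 in siNT, a log2 fold change of -0.37 (-0.44 to -0.29). Lig1 had 217 CPM in siMbnl against 277 in siNT (-0.35, interval -0.39 to -0.32). Rpa2 had 83.4 CPM in siMbnl against 104 in siNT (-0.32, interval -0.38 to -0.26). These and Pola2, with 40.4 CPM in siMbnl against 50.1 in siNT (-0.31, interval -0.39 to -0.23), were the furthest of the 43 from 0. By role, the 7 polymerase and primase genes lay between -0.31 and -0.22 and the 12 helicase genes between -0.37 and -0.04, while Rrm2, Tyms and Rpa3 were at -0.04, -0.03 and -0.03. Orc3 was the 1 gene above 0, at 0.01.

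After Nacc1 knockdown the signs were the other way. No replication gene was past 2-fold, where 0.406% of 11580 genes were higher and 2.97% lower, or past 1.5-fold, where 1.88% and 8.27% were. Above 0 were 40 of 43 genes, against 6041 of 11580, and the median log2 fold change was 0.22, against 0.0129. The interval lay above 0 for 39 genes, where 37.2% of all genes did so, and below 0 for 3, where 33.5% did. Without the TMM factor these were 38 above (of all genes 36.5%) and 3 below (of all 34.3%). E2f1 had 192 CPM in siNacc1 against 130 in siNT, a log2 fold change of 0.56 (0.52 to 0.60). Rrm2 had 209 CPM in siNacc1 against 144 in siNT (0.54, interval 0.50 to 0.58). Mcm10 had 236 CPM in siNacc1 against 164 in siNT (0.52, interval 0.48 to 0.56). Rpa3 followed with 76.4 CPM in siNacc1 against 55.0 in siNT (0.47, interval 0.41 to 0.54). The genes below 0 were Prim2, the primase regulatory subunit, at -0.39 (30.8 CPM in siNacc1 against 40.3 in siNT), Mcm7 at -0.17 and Orc4 at -0.10. Both comparisons of the first experiment share 1 siNT library, so an error of that library would enter both, and intervals cover counting error only.

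**Figure D4:**
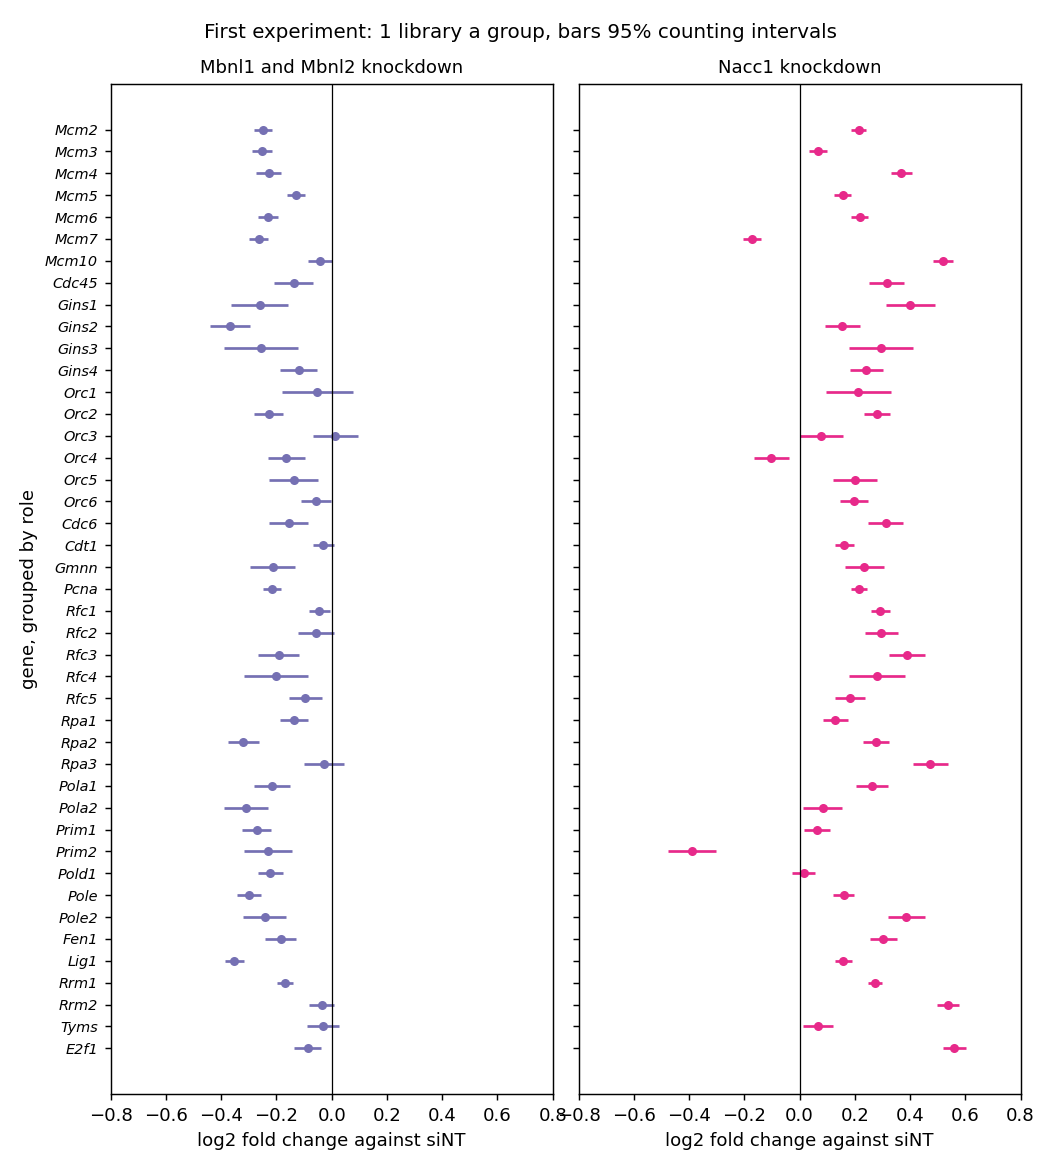
Log2 fold change against siNT of each of the 43 replication genes after Mbnl1 and Mbnl2 knockdown (left) and Nacc1 knockdown (right), 1 library a group, with bars for 95% counting intervals. On the left 42 of 43 points lie below 0 and on the right 40 of 43 lie above.

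The highest-read members of each role group show how these shifts compare. In siMbnl, siNacc1 and siNT, Mcm2 had 265, 365 and 315 CPM, Rrm1 342, 465 and 385, Cdt1 201, 230 and 205, and Pcna 251, 339 and 292. Rpa1 had 113, 136 and 124 CPM in these libraries and Pole 139, 191 and 171. Lig1 had 217, 310 and 277 CPM in the same order and E2f1 122, 192 and 130. Apart from Cdt1, the siNT library stood in the middle for each of these genes. For Cdt1 the interval of siMbnl against siNT held 0 (-0.07 to 0.01), and in the authors' deposited table its log2 fold change was 0.03, so its order is not settled.

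**Figure D5:**
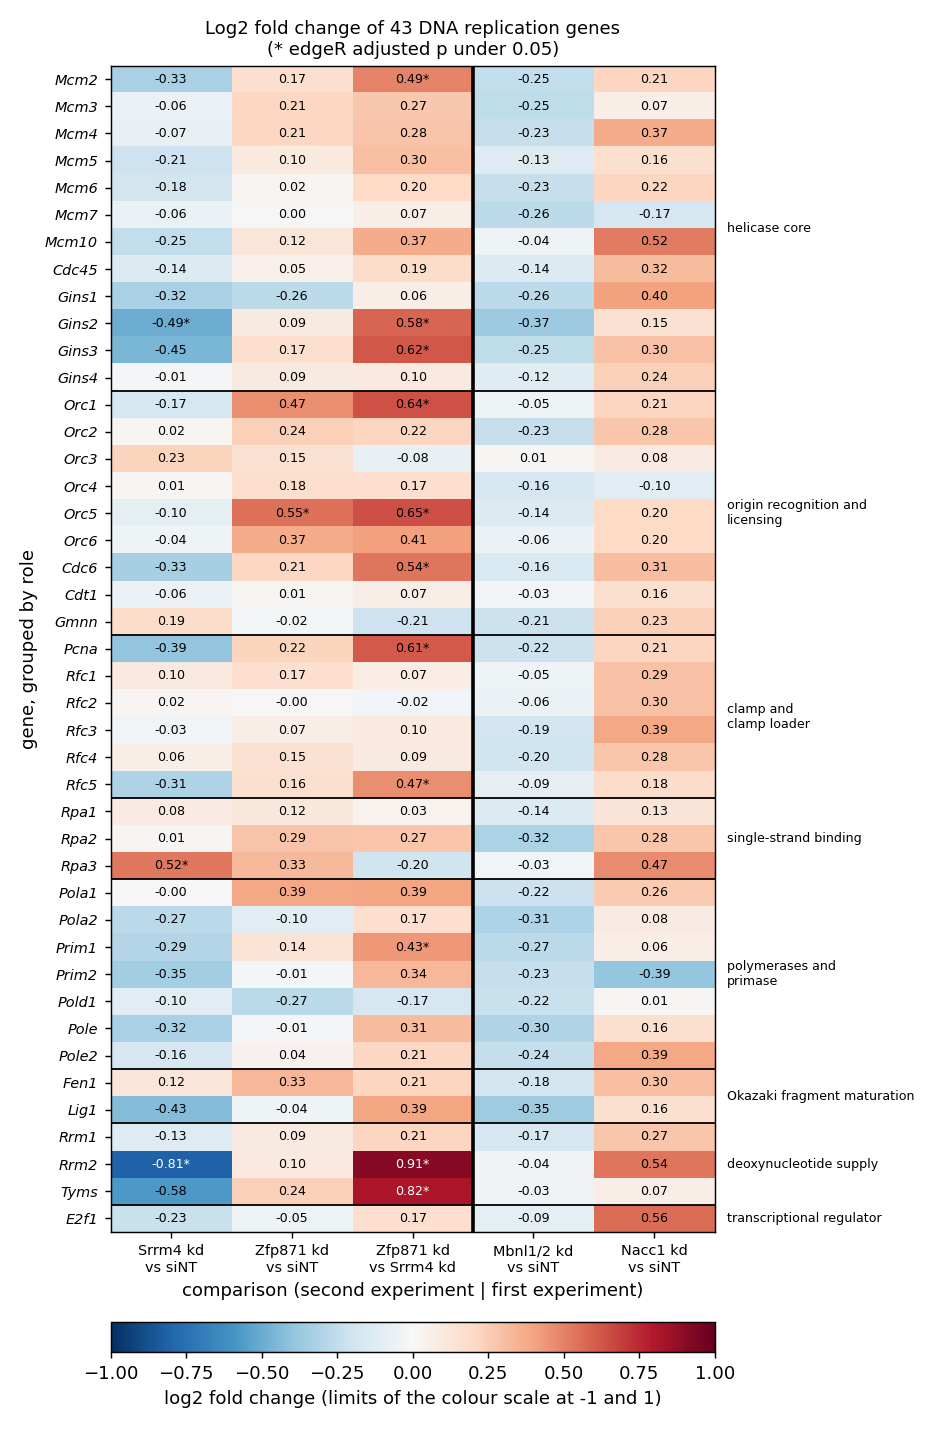
Log2 fold change of the 43 replication genes (rows, by role) in the 3 comparisons of the second experiment and the 2 of the first, with an asterisk where the edgeR adjusted p was under 0.05. The third column, Zfp871 against Srrm4 knockdown, holds 11 asterisks, and the 2 columns of the first experiment have no test.

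The wider pathway was read from 102 genes in 8 lists, 97 of them tested. After Srrm4 knockdown 6 of 97 were called lower, where 3.29% of all genes were, and 1 higher, where 1.41% were, and 68 were below 0, as were 50% of all genes. Lower were Tfdp2 (log2 fold change -1.12), a dimer partner of E2F proteins, E2f5 (-0.67) and Ccnd1 (-0.60), which encodes cyclin D1. Also lower were the histone chaperone Asf1b (-0.91), the checkpoint kinase Chek1 (-0.61) and the deoxynucleotide hydrolase Samhd1 (-0.42). The cyclin gene Ccnd3 was higher (1.28). After Zfp871 knockdown 1 was called, Skp2 (-0.70), a ubiquitin ligase subunit that acts on cell cycle inhibitors, where 2.14% of all genes were called lower and 0.751% higher. Above 0 were 68, as were 48.4% of all genes. Between the knockdowns 10 were called higher in the Zfp871 knockdown by edgeR and 3 lower, where 5.53% and 5.57% of all genes were. Higher were E2f2 (0.60), E2f5 (1.05), Tfdp2 (1.08), Cdk2 (0.37), Dbf4 (0.50), the activator of the origin-firing kinase Cdc7, the fork protein gene Donson (0.53), Samhd1 (0.56), Asf1b (0.60), the histone chaperone Nasp (0.54) and Chek1 (0.73). Lower were E2f7 (-0.77), a repressor of E2F targets, Ccnd3 (-0.84) and Skp2 (-0.80). None of the 15 mitosis genes was called in the 3 comparisons by edgeR's adjusted p. At an unadjusted p under 0.05, Srrm4 knockdown had 2 mitosis genes higher and 1 lower, and Zfp871 knockdown and the direct comparison each had 3 of 15 higher and 0 lower. Of all genes 11.3% were higher and 13.5% lower for Srrm4, 9.47% and 11.6% for Zfp871, and 14.7% and 14.6% in the direct comparison. In the first experiment none of the 97 was past 2-fold, where 0.758% of all genes were higher and 0.259% lower for Mbnl1 and Mbnl2. For Nacc1 these shares were 0.406% and 2.97%. After Mbnl1 and Mbnl2 knockdown 66 of the 97 were below 0, where 52.8% of all genes were. In that comparison 10 of 15 mitosis genes and 7 of 11 checkpoint genes were above 0. After Nacc1 knockdown 74 of the 97 were above 0, where 52.2% of all genes were.

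Since Srrm4 and the muscleblind proteins act on splicing, the exons of the replication genes were examined as a readout apart from their levels. Of 183 listed cassette exons in these genes, 48 exons of 19 genes could be tested in the second experiment on inclusion and exclusion reads, whose ratio is the percent spliced in (PSI). edgeR called 0 after Zfp871 knockdown, where 0% of all 20266 exons were, with 4 at an unadjusted p under 0.05 (of all exons 4.67%), and 0 after Srrm4 knockdown, where 0.123% of all exons were called lower and 0% higher, with 3 unadjusted (of all exons 5.71%). The largest difference after Zfp871 knockdown was in an 83 nt exon of Tyms (chr5:30397767-30397849, mm9), with 23.6% and 22.4% in siZfp871 and 53.7% and 36.9% in siNT, a difference of -22.3 points on 24 to 44 reads a library (edgeR adjusted p = 0.888). A 73 nt Tyms exon (chr5:30395006-30395078, mm9) had 73.4% and 74.4% in siZfp871, 75.8% and 76.1% in siSrrm4 and 86.0% and 88.0% in siNT, without overlap, and was not called either (edgeR adjusted p = 0.888 and 0.860). A 169 nt Mcm7 exon (chr5:138607138-138607306, mm9) had 87.9% and 79.7% in siZfp871 against 79.7% and 59.4% in siNT. The same exon had 82.2% in siMbnl (95% exact Clopper-Pearson interval 67.9 to 92.8) against 53.5% in siNT (36.4 to 71.9) in the first experiment. Those intervals overlapped. Of the member exons with at least 20 reads in all 3 libraries, 0 passed a 20 point difference with separate intervals in either comparison. Of all 36175 exons with such reads, 0.210% were past it higher and 0.323% lower for siMbnl. For siNacc1 these shares were 0.127% and 0.370%. At 10 points the members also gave 0, where 0.445% and 0.760% of exons were past it for siMbnl and 0.409% and 0.868% for siNacc1.

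Of 538 listed introns, 96 in 26 genes were tested, and limma called 0 in either knockdown. It also called 0% of all 28100 introns, so this count says nothing about the members. At an unadjusted p under 0.05 there were 4 introns in each comparison, where 6.20% of all introns were for Zfp871 and 6.04% for Srrm4. The largest difference was in an intron of Rfc1 (chr5:65654386-65655481, mm9), with 8.61% and 14.4% retained in siZfp871, 3.60% and 12% in siSrrm4, and 31.2% and 12.9% in siNT. The siNT libraries of that intron lay far apart, and the siZfp871 libraries overlapped them. Both siSrrm4 libraries lay below both siNT libraries, though narrowly at the nearest (12% against 12.9%). An intron of Orc3 (chr4:34519058-34519713, mm9) had 7.69% and 7.36% in siZfp871, 2.78% and 6.32% in siSrrm4, and 23.1% and 8.56% in siNT.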

How the data were processed

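Polyadenylated RNA of N2A cells was measured in 9 libraries of 6 groups. The authors deposited raw read counts per gene, cRPKM (an RPKM corrected for mappable length, used here for the first experiment) and, per the file headers, log2 fold changes with an FDR (an adjusted p-value) of their edgeR analysis. They also deposited inclusion and exclusion read counts per splicing event, from vast-tools per the design text, and the percent spliced in (PSI) used here is their ratio. Genome build mm9, CASAVA 1.8 and edgeR are named in the submitters' processing notes. The aligner, the annotation and the use of strand in counting are not stated in the labels or headers used.

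Raw counts of the 6 libraries of the second experiment were fitted in 1 edgeR 4.0.16 quasi-likelihood model (R 4.3.3) with TMM factors and filterByExpr (12378 of 21553 genes kept). P-values were adjusted by Benjamini-Hochberg over all tested genes, and a gene was called at an adjusted p under 0.05. CPM are computed from the counts. First experiment fold changes are differences of log2 CPM with a prior count of 2, for genes with at least 50 counts. Exons were fitted on inclusion and exclusion reads in edgeR with at least 10 reads in each library, and called at an adjusted p under 0.05 with a difference of at least 10 points. Introns were tested with limma 3.58.1 on logit PSI. Alternatives included DESeq2 1.42.0, the likelihood ratio test, other scaling and filters, a replicate block, and leaving out each library.

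The members and lists were chosen with earlier results of these data known. Genes were named if called, among the 4 largest changes of a comparison, or highest in reads within their role. Of the lists of other genes, 3 symbols were not found. In the tables, 26 columns of per-library or group values were not used, among them cRPKM of the second experiment and the deposited PSI, which the reads give within rounding.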

Additional observations from a re-analysis of the deposited data

How the results depend on the processing

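Counts of called replication genes depended on the model, as did those over all genes. Against the main counts of 1 higher and 2 lower after Srrm4 knockdown, 1 higher and 0 lower after Zfp871 knockdown, and 11 higher between the knockdowns, DESeq2 gave 10 lower for Srrm4 and 4 higher and 1 lower for Zfp871. Over all genes DESeq2 called 9.23% lower for Srrm4, and 4.59% higher and 6.75% lower for Zfp871. The likelihood ratio test gave 4 lower for Srrm4, where it called 6.34% of all genes lower. DESeq2 size factors in edgeR gave 0 higher for Srrm4, where 1.33% of all genes were. Rpa3 then moved to an edgeR adjusted p of 0.0501. With only the 4 libraries of a comparison there were 0 higher and 0 lower for Srrm4 and 0 higher for Zfp871, and the cause was not tested. The same fit called 0% of all genes for Srrm4, so its count says nothing about the members. For Zfp871 it called 0.32% of all genes higher and 1.14% lower. Leaving out a library gave 0 to 0 calls for Srrm4, 0 to 0 for Zfp871, and 0 to 1 higher between the knockdowns. The medians then ran from -0.185 to -0.062, from 0.0833 to 0.168 and from 0.148 to 0.318. Without the TMM factor the median after Mbnl1 and Mbnl2 knockdown was -0.130. The columns carry letters and the labels numbers, which are not tied to each other. Libraries of the same letter deviated together (r over all genes 0.749, 0.662 and 0.637), with only 2 letters. With the letter as a replicate block, 2 were higher and 17 lower for Srrm4, 12 higher and 1 lower for Zfp871, and 26 higher between the knockdowns. Over all genes the block gave 17% higher and 19.9% lower for Srrm4, 13.8% and 17.3% for Zfp871, and 20.6% and 21.4% between the knockdowns. Medians kept their sign in every alternative run. Refits of the called members lost the call 64 times and kept it 86 times, with 0 changes of sign. Splicing counts stayed at 0 in every alternative.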

Other observations

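The authors' deposited splicing table marks events as differential. It marked 5 of 1087 events of the replication genes for Mbnl1 and Mbnl2 knockdown (0.460%), where 0.871% of all 186974 events were marked. They were alternative donors of Fen1, alternative acceptors of Orc3 that differ by 3 nt, and an alternative acceptor of Pola2. For Nacc1 knockdown it marked 1 of 1086 (0.0921%), an intron of Gins3 (chr8:98161944-98167006, mm9), where 0.931% of all events were marked. It marked 0 of 1093 for Zfp871 knockdown and 0 of 1094 for Srrm4 knockdown, where 0.236% and 0.261% of all events were marked.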
